A study of Drosophila melanogaster with 3 samples.

Results

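The proteins of the mitochondrial ribosome are encoded by nuclear genes, many of which have Drosophila symbols that start with mRpL (large subunit) or mRpS (small subunit). Of the 13945 protein-coding genes annotated on the 6 chromosome arms, 73 carried such a symbol, 47 with mRpL and 26 with mRpS. The rule that defines the set uses the symbol and no measured value. The data are ChIP-seq (chromatin immunoprecipitation followed by sequencing) peak lists for CG17186, an uncharacterised protein, and show where it was recovered at these genes. The flies carried a transgene encoding CG17186 with a C-terminal green fluorescent protein (GFP) tag, and embryos of both sexes were collected at 0 to 14 hours. Chromatin was recovered with an antibody against GFP in 3 biological replicates, which form the only group, and the labels give no treated or untagged group. The authors used a control alignment when calling peaks, per the deposited read-me tables, and that control library was not analysed here. The embryos were whole organisms, and peak lists hold no expression values with which to check stage or tissue.

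The mitochondrial ribosome translates the few messenger RNAs of the mitochondrial genome, which encode core subunits of the respiratory chain and of ATP synthase. All of its proteins are made in the cytoplasm and imported, so their supply starts from nuclear promoters. Its small subunit decodes the messenger RNA, and its large subunit forms peptide bonds and holds the exit tunnel. Many fly housekeeping genes lie head to head with a neighbour, both transcribed outward from a shared upstream stretch that serves as promoter for both.

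A gene is called bound here when any of its annotated transcription start sites (TSSs) had a peak summit within 500 bp. By the authors' reproducible set of 3814 peaks, 41 of the 73 mitochondrial ribosomal protein genes were bound, through 45 summits. Signal is the authors' own value per peak, on the scale of their unnamed caller. To show the DNA at the strong end of this set, 121 bases centred on the summit are printed for 6 bound genes, on the strand of the ribosomal protein gene and from the RefSeq dm6 sequence. The windows are chrX:15760721-15760841 (plus strand) for mRpL3, chr2L:13835395-13835515 (minus) for mRpS23 and chr3R:15229475-15229595 (plus) for mRpS10. Those of mRpL21, mRpL47 and mRpL4 are chr3L:19255213-19255333, chr3R:9515920-9516040 and chr2L:16329098-16329218, all on the minus strand. Capitals mark any of the 12 words searched, read on either strand: AACAGCAC at mRpL3, TGCGCA at mRpL21, CAGGGCTG at mRpL47, and the overlapping TATCGATA and ATCGATAG at mRpL4.
mRpL3: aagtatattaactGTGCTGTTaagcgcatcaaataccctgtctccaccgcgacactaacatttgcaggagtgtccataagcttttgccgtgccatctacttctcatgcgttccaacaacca
mRpS23: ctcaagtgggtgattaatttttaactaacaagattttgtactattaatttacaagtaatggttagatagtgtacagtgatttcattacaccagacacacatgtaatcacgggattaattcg
mRpS10: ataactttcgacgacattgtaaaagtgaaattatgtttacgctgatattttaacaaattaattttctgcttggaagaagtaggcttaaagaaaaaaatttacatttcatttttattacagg
mRpL21: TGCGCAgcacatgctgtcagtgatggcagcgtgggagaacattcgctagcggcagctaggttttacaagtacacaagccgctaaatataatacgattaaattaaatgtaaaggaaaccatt
mRpL47: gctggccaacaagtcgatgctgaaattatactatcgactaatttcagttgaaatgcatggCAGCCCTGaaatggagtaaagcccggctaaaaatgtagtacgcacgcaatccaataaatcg
mRpL4: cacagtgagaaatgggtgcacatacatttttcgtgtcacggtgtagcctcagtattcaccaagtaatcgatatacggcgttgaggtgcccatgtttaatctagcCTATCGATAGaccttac

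The words in capitals differed from gene to gene, and the windows of mRpS23 and mRpS10 held none of the 12. Because the windows were picked with their words in view, they do not show how often any word occurs. The words at mRpL21 and mRpL4 lay at the ends of their windows, more than 50 bp from the summit.

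CG17186 was recovered at 41 of the 73 genes (56.2%, exact Clopper-Pearson 95% interval 44.1 to 67.8%), against 28.0% of all coding genes (3905 of 13945). The large subunit had 30 of 47 genes bound (63.8%, 48.5 to 77.3%), and the small subunit 11 of 26 (42.3%, 23.4 to 63.1%). These intervals overlap, and they cover the number of genes only, since genes are not replicates. The interval of the small subunit includes the 28.0% of coding genes, and that of the large subunit does not. In the longer pooled list of 23428 relaxed peaks, 68 of the 73 genes had a summit (93.2%), against 55.2% of all coding genes. That count took in 46 of 47 large subunit genes and 22 of 26 small subunit genes. No test was run on any of these shares.

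The replicates gave like counts. In their relaxed lists, 68, 65 and 70 of the 73 genes had a summit in replicates 1, 2 and 3, against 57.6, 51.9 and 57.3% of all coding genes. When each replicate list was cut to its 3814 strongest peaks, the counts were 41, 40 and 37, against 27.5, 27.0 and 26.6% of coding genes. In those shortened lists 30 of the 73 genes were bound in all 3 replicates (41.1%), against 19.3% of coding genes.

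**Figure D1:**
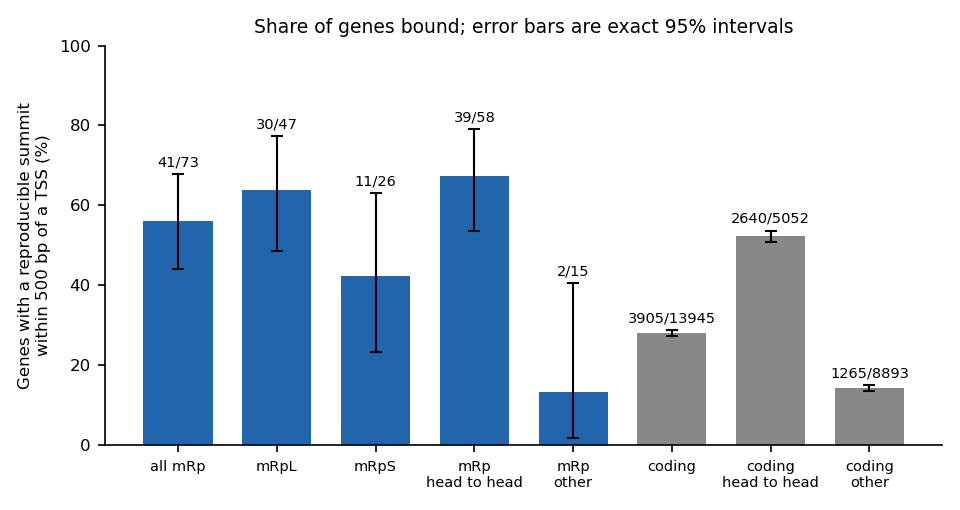
Share of genes with a reproducible summit within 500 bp of a TSS, in percent, for mitochondrial ribosomal protein genes (blue) and all coding genes (grey), with counts above the bars and exact 95% intervals as error bars. Head-to-head genes had the higher share in both colours, 67.2% of the mitochondrial ribosomal protein genes and 52.3% of coding genes.

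Signals at the bound genes spanned a wide range, with mRpL3 far above the rest. The median pooled signal of each gene's strongest summit was 198.4 (quartiles 145.6 and 367.6), against 179.3 (138.4 and 248.4) over all bound coding genes. Of the 41 genes, 3 lay among the 100 strongest of the 3814 peaks, 8 more were among the 500 strongest and 30 ranked lower. The share of all bound coding genes at these ranks is not given here, so the counts are not read as few or many. To compare replicates, each signal was scaled to the median of its own replicate's peaks at reproducible sites found in all 3 lists, so that 1 is a typical shared peak. This is called the relative signal. The median coefficient of variation of the relative signal was 19.2% over the member summits, against 19.7% over all shared peaks. Of the 45 summits, 44 were overlapped by a peak in all 3 replicates, an overlap to be read with care, since these lists went into making the reproducible set. The exception, mRpL46, had no overlapping peak in replicate 2.

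The strongest peak in the set lay beside mRpL3, whose bacterial homologue lies close to the peptidyl transferase centre. This peak spanned chrX:15760416-15761359 and had a pooled signal of 3097, rank 44 of the 3814, with replicate signals of 1214, 997.0 and 1053. Its relative signal was 18.3 ± 2.09 (SD, n = 3), and its pooled signal was 4.07 times that of the next gene. The summit lay 467 bp upstream of the mRpL3 TSS but only 48 bp upstream of the TSS of Graf, a GTPase-activating protein gene transcribed the other way. The same interval carried a further summit, rank 79, at 221 bp upstream of mRpL3. At 467 bp, mRpL3 was the gene closest to the inner edge of the 500 bp window.

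The next genes in order were mRpS23 and mRpS10, both of the small subunit. mRpS23 had replicate signals of 291.6, 221.2 and 249.6, with a relative signal of 4.26 ± 0.393 (SD, n = 3). mRpS10, whose bacterial homologue sits in the head of the small subunit, had 239.1, 254.0 and 256.7, with a relative signal of 4.25 ± 0.781 (SD, n = 3). Their replicate ranges overlapped each other, and both lay wholly below that of mRpL3. The mRpS23 summit was 383 bp upstream of its TSS and 109 bp from the TSS of CenG1A, an Arf GTPase-activating protein gene. The mRpS10 summit fell near the middle of its intergenic stretch, 130 bp from mRpS10 and 127 bp from Art3, an arginine methyltransferase gene.

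A run of 5 genes followed at relative signals near 3. mRpL21 had replicate signals of 199.1, 164.4 and 234.1 and a relative signal of 3.32 ± 0.249, and its range lay below that of mRpS10. mRpL47 had 210.2, 181.4 and 206.4 with a relative signal of 3.35 ± 0.279, and mRpL50 had 189.8, 148.9 and 234.2 with 3.17 ± 0.351. These ranges overlapped, so the 3 large subunit genes were not separated. mRpS16 had replicate signals of 179.0, 161.7 and 207.0 and a relative signal of 3.06 ± 0.268. mRpL23, whose bacterial homologue lines the exit of the peptide tunnel, had 158.6, 170.3 and 181.2 with 2.89 ± 0.511 (SD, n = 3 for each gene in this run). Neighbours in the order from mRpL21 down to mRpL4 all overlapped in their replicate ranges. The partners of these genes were rept, which encodes the ATPase Reptin of chromatin-remodelling complexes, CG8176, the meiotic recombination gene mei-P22, the zinc finger gene cg (combgap) and CG9004.

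The last of the 12 strongest were all large subunit genes. mRpL41 had replicate signals of 178.4, 109.9 and 160.3, and a relative signal of 2.47 ± 0.265. mRpL53, beside the microRNA effector gene AGO1, had 151.4, 78.4 and 148.9 with 2.06 ± 0.414, and mRpL44, beside the Brahma complex gene Snr1, had 139.4, 131.5 and 93.1 with 2.08 ± 0.624. For mRpL53 replicate 2 was the low one, and for mRpL44 it was replicate 3. mRpL4, whose bacterial homologue reaches into the exit tunnel, had 91.6, 87.2 and 111.0 with a relative signal of 1.62 ± 0.186 (SD, n = 3 for each of these 4 genes). By pooled signal the weakest bound gene was mRpL35, whose replicate signals were 36.6, 47.6 and 40.8, with a relative signal of 0.717 ± 0.216 (SD, n = 3). By relative signal mRpL14 (0.632 ± 0.0883) and mRpL28 (0.690 ± 0.243) were lower (SD, n = 3 each), within the spread of mRpL35. mRpL35 lies beside Mitofilin, a gene of the complex that shapes the mitochondrial inner membrane. Its pooled signal of 110.7 ranked 3752, just inside the reproducible set, whose weakest peak had 109.3. mRpL13, at 106.1 and rank 3950, fell just outside.

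**Figure D2:**
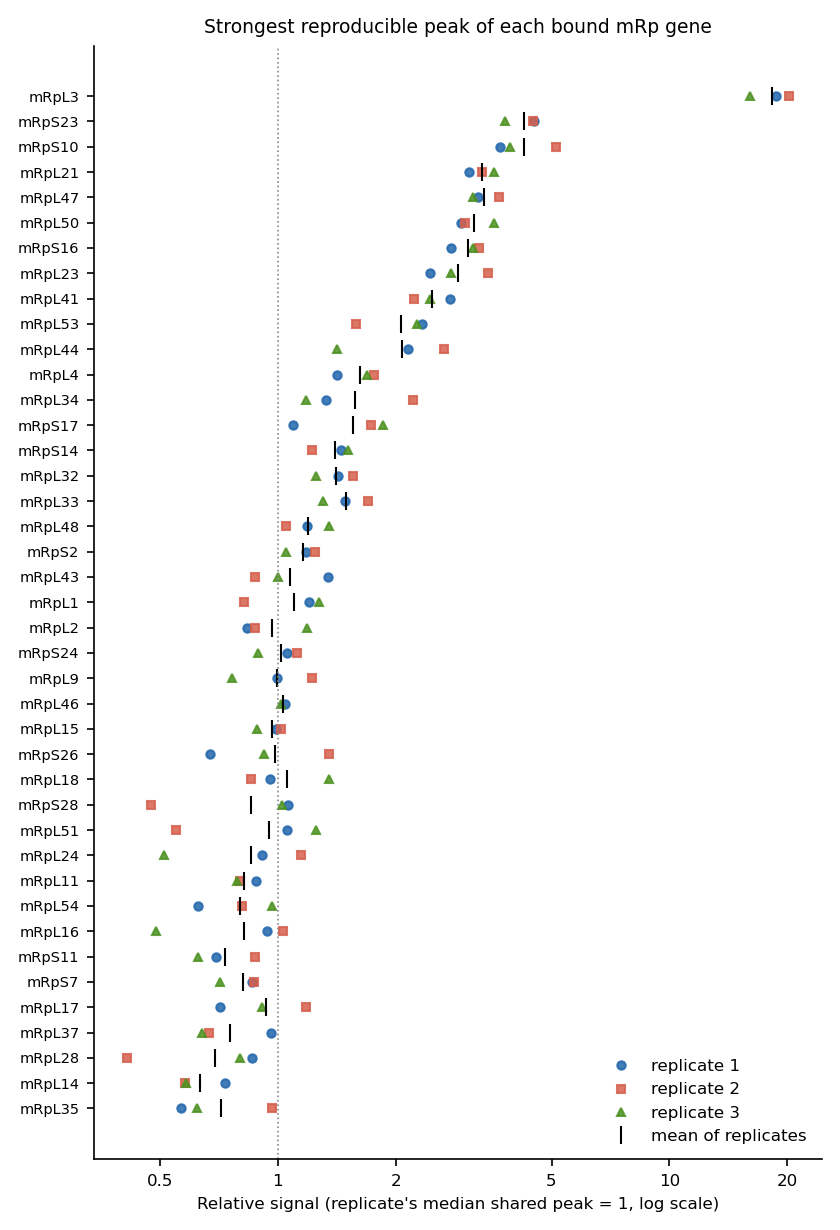
Relative signal of the strongest reproducible peak of each of the 41 bound genes, strongest at the top, on a log axis where 1 is the replicate's median shared peak; symbols are the replicates and the vertical tick is their mean. mRpL3 stands alone at 18.3, while further down the order neighbouring genes overlap.

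The remaining bound genes are given by where their products sit in the ribosome, with the pooled signal of the strongest summit. Among proteins whose bacterial homologues lie at the catalytic centre or along the tunnel, mRpL2 had 173.6, mRpL24 145.6 and mRpL16 140.5, beside mRpL3, mRpL4 and mRpL23 above. Also of this kind, mRpL22 and mRpL27 were not bound and had 49.0 and 63.1 in the pooled list. At the stalks, where translation factors and leaving transfer RNAs pass, mRpL1 had 198.4 and mRpL11 144.3. The stalk genes mRpL10 and mRpL12 were not bound, and mRpL12 had 63.4 in the pooled list, which held no summit for mRpL10.

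Of the other large subunit genes with bacterial-type numbers, mRpL34 had 279.0, mRpL32 243.5, mRpL33 242.9, mRpL9 170.5 and mRpL15 166.0. Lower still were mRpL18 at 161.5, mRpL17 at 132.7, mRpL28 at 118.5 and mRpL14 at 116.1. The large subunit genes numbered above the bacterial set were mRpL48 at 231.1, mRpL43 at 203.8, mRpL46 at 168.5, mRpL51 at 150.7, mRpL54 at 140.8 and mRpL37 at 128.8. In the small subunit, mRpS17 had 259.8, mRpS14 248.6, mRpS2 220.3, mRpS24 172.0, mRpS26 165.7, mRpS28 152.4, mRpS11 139.5 and mRpS7 137.4. By number, 26 of 42 genes named after a bacterial protein (L36 or S21 and below) were bound (61.9%, 45.6 to 76.4%), against 15 of 31 with higher numbers (48.4%, 30.2 to 66.9%), and 28.0% of all coding genes. The intervals overlap, and this split was chosen after the values were seen. Mitochondrial ribosomal proteins that go by other names were not among the 73, and only tko and bonsai were looked up. Of these, bonsai (S15) was bound at 128.5, rank 3013, and tko (S12) was not, with 101.9 in the pooled list at rank 4169.

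The genes with no reproducible summit were 32, and 27 of them had a summit in the pooled list. Besides mRpL13, the strongest were mRpS21 at 100.8, mRpL52 at 93.8, mRpL38 at 90.6, mRpL55 at 89.1 and mRpS18A at 88.8. Next came mRpL42 at 84.1, mRpS31 at 81.5, mRpL20 at 81.1, mRpS18B at 80.8, mRpL39 at 80.7, mRpL40 at 70.5, mRpS18C at 68.6, mRpL12 at 63.4, mRpL49 at 63.3 and mRpL27 at 63.1. The lowest were mRpL36 at 57.0, mRpL19 at 53.9, mRpL45 at 51.6, mRpS25 at 49.6, mRpL22 at 49.0, mRpS30 at 48.1, mRpS6 at 45.2, mRpL30 at 41.0, mRpS5 at 37.4, mRpS29 at 35.8 and mRpS33 at 34.7. mRpL10, mRpS22 and mRpS9 had a summit in replicate lists only, and mRpS34 and mRpS35 had none in any list. All 4 small subunit genes without a pooled summit are among these 5. Because the reproducible set was identical to the 3814 strongest pooled peaks, bound and unbound genes are separated by a single threshold on signal, with mRpL35 at 110.7 and mRpL13 at 106.1 on either side of it. Among unbound genes the nearest reproducible summit outside the window was 754 bp from mRpL27.

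**Figure D3:**
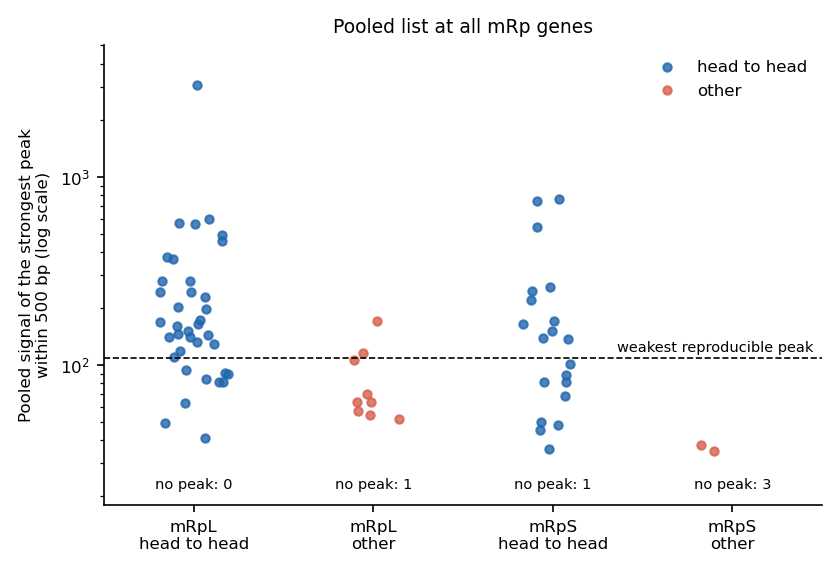
Pooled signal of the strongest peak within 500 bp of each gene, on a log axis, split by subunit and by head-to-head arrangement; each point is a gene, the dashed line is the weakest reproducible peak (109.3) and genes without a peak are counted at the bottom. Points lie on both sides of the line in a continuous spread, and only 2 genes that are not head to head (mRpL9 and mRpL14) lie above it.

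More of the genes arranged head to head were bound than of the others. A gene is called head to head when a coding TSS on the opposite strand, transcribed away from it, lay within 1000 bp upstream. This held for 58 of the 73 genes (79.5%, 68.4 to 88.0%), against 36.2% of all coding genes. Of these 58, 39 were bound (67.2%, 53.7 to 79.0%), against 52.3% of head-to-head coding genes (2640 of 5052). Of the other 15, only mRpL9 and mRpL14 were bound (13.3%, 1.66 to 40.5%), against 14.2% of the coding genes not arranged so (1265 of 8893). By this rule, which counts a shared summit for both genes, the intervals of the 2 classes of ribosomal protein genes do not overlap. The share of the others varied with the settings but stayed within its interval of 1.66 to 40.5%. With a head-to-head distance of 500 bp it was 5 of 20 (25%), against 15.7% of coding genes not arranged so. At that distance 36 of 53 head-to-head genes were bound (67.9%), against 60.7% of head-to-head coding genes, a narrower gap than at 1000 bp. At 1000 bp, in the strongest peaks of replicates 1, 2 and 3 alone, the share of the others was 20, 6.67 and 6.67%, against 14.2, 12.9 and 13.8%. In the large subunit 28 of 37 head-to-head genes (75.7%) and 2 of 10 others (20%) were bound, against 52.3 and 14.2% of coding genes. In the small subunit 11 of 21 head-to-head genes were bound (52.4%), near the 52.3% of head-to-head coding genes. Of its others 0 of 5 were bound, a count that allows a share of up to 52.2% by the exact interval.

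A summit between 2 genes counts for both, so the place of the strongest summit in each pair was recorded. Of the 39 bound head-to-head genes, 30 had the strongest summit between the 2 TSSs, 23 had it nearer the partner's TSS and 16 nearer their own. The same counts over all bound head-to-head coding genes are not given here, so these are not read as a trait of the set. The weaker further summits of mRpL3, mRpL34, mRpL17 and mRpL18 were all nearest to the TSS of the ribosomal protein gene. The median distance from summit to TSS was 91 bp for the partner and 133 bp for the ribosomal protein gene. Over all 41 bound genes the median offset was 130 bp upstream of the TSS, in a range of -467 to 71 bp, against 75 bp upstream over all bound coding genes. Of these 41, 39 were head to head, and over bound head-to-head coding genes the median offset was -89 bp. The summit was upstream in 36 genes and downstream in 5. When each summit was given to its nearest TSS only, 22 of the 73 genes kept one (30.1%, 19.9 to 42.0%), against 20.2% of coding genes. By that rule the head-to-head share was 20 of 58 (34.5%, 22.5 to 48.1%), against 30.9%, and the share of the others 2 of 15 (13.3%, 1.66 to 40.5%), against 14.1%. The intervals of the 2 classes overlap by that rule. Both of these intervals include the share of coding genes of the same arrangement.

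The partner was bound at 37 of the 39 bound head-to-head genes and at 0 of the 19 unbound ones, a count that allows a share of up to 17.6% by the exact interval. This match is partly built in, because a shared summit is counted for both genes. The same shares over all head-to-head coding genes are not given here, so the match is not read as particular to this set. The exceptions were mRpL41 and mRpL4, whose partners CG8079 and CG4440 start 762 and 793 bp away, out of reach of a summit 146 and 26 bp from the ribosomal protein gene. The 2 TSSs were a median of 257 bp apart in the bound pairs (20 to 793 bp) and 392 bp apart in the unbound pairs (45 to 695 bp), against 298 bp over all head-to-head coding genes. The partners did not share 1 kind of function. They included Taz (tafazzin, a cardiolipin-remodelling enzyme), HtrA2 (a mitochondrial protease) and qless (an enzyme of the ubiquinone side chain), all with mitochondrial roles. Others were the mitotic kinase gene Cdk1, the histone methyltransferase gene trr, the dystroglycan gene Dg, the DNA repair gene CtIP and the phototransduction phospholipase gene norpA. Partners of unbound genes included the ATP synthase gene ATPsynD (mRpL55), the proteasome gene Prosbeta2 (mRpL39) and the DNA repair gene rad50 (mRpS29). Peak lists cannot tell which gene of a pair, if either, the protein acts on.

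**Figure D4:**
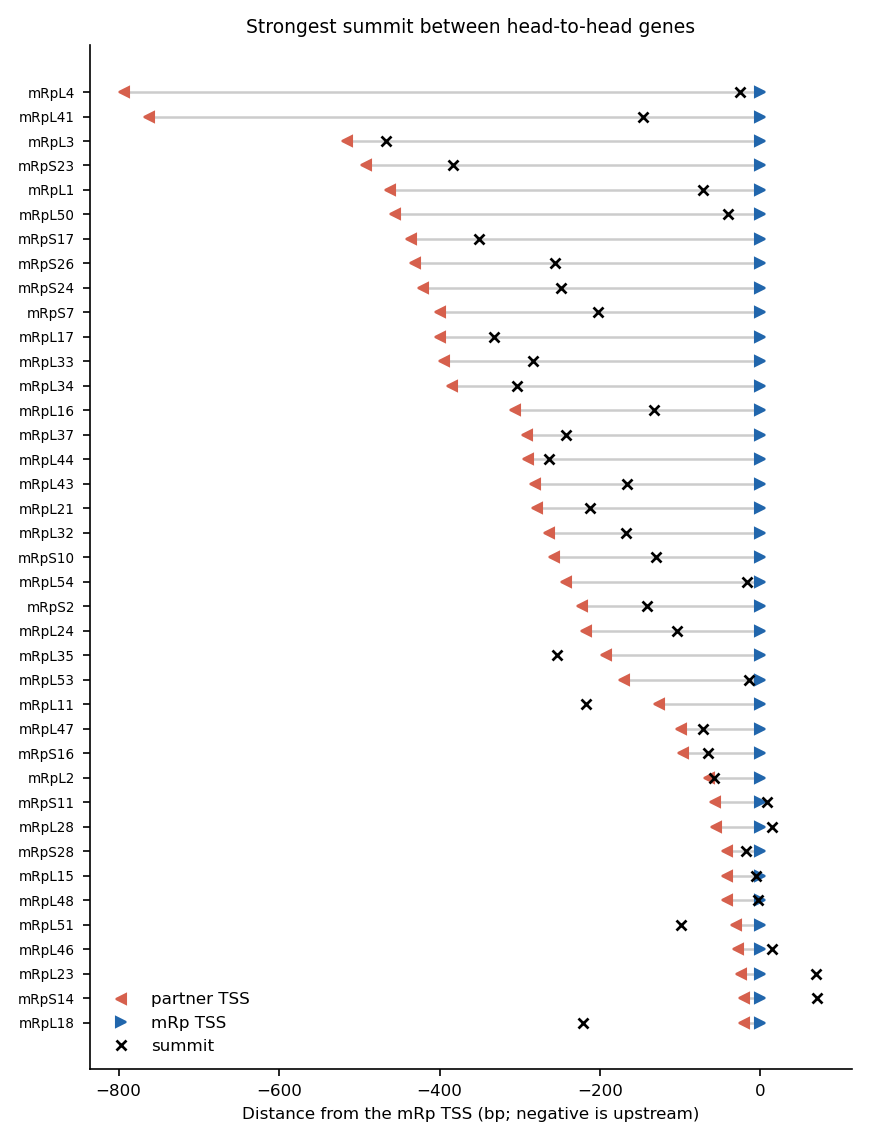
Position of the strongest summit (cross) relative to the TSS of each bound head-to-head gene (blue arrow, at 0) and of its partner (red arrow), in bp, widest pair at the top. Of the 39 crosses, 30 lie between the arrows and 23 are nearer the partner.

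Binding was found on each of the 5 large arms that carry these genes. The bound counts were 5 of 11 genes on X, 8 of 12 on 2L, 9 of 12 on 2R, 8 of 17 on 3L and 11 of 21 on 3R. Of all coding genes, 29.6% were bound on X, 25.6% on 2L, 28.4% on 2R, 26.5% on 3L and 29.9% on 3R. The exact 95% interval of every arm overlapped that of the whole set. Each arm has few genes and is part of that set, so this overlap does not show that the arms are alike.

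Other genes of mitochondrial gene expression were bound in varying shares. Of 15 mitochondrial aminoacyl-tRNA synthetase genes, which charge the transfer RNAs, 3 were bound (20%, 4.33 to 48.1%). One of these, PheRS-m, carried the peak of rank 2 in the series, with a pooled signal of 13799 and a relative signal of 76.9 ± 8.64 (SD, n = 3), and ArgRS-m and MetRS-m had 493.5 and 146.4. Of 9 mitochondrial translation factor genes, mEFTs (248.4) and mRF1 (126.9) were bound. Of 12 genes for mitochondrial DNA maintenance and transcription, 7 were bound, the strongest being mtSSB (194.9), PolG2 (194.3) and mtTFB1 (189.2). Of 15 genes for protein import, 5 were bound, the strongest being Tim9a (239.6), Tom7 (176.2) and Tim8 (167.2). All of these were read against the 28.0% of coding genes, and the intervals for lists this small are wide.

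The ribosome of the cytoplasm gave the higher share. Against the 41 of 73 genes of the mitochondrial ribosome stood 74 of 92 cytoplasmic RpL and RpS genes (80.4%, 70.9 to 88.0%), with 28.0% of all coding genes bound. The median signal at the bound genes was 198.4 in the mitochondrial set and 268.9 in the cytoplasmic one. The intervals of the shares of the 2 ribosomes do not overlap. Fewer of the cytoplasmic genes were head to head, 55 of 92 (59.8%), against 36.2% of coding genes. Of those that were not, 24 of 37 were bound (64.9%, 47.5 to 79.8%), against 14.2% of coding genes, where the mitochondrial set had 2 of 15. With nearest TSS only, the mitochondrial set kept 22 of 73 genes (30.1%), and the cytoplasmic set kept 62 of 92 (67.4%), against 20.2% of coding genes.

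The DNA under the summits of the mitochondrial set was searched for 12 short words on both strands, within 50 bp of the summit, and 19 of the 45 summits held at least 1 (42.2%), against 46.1% of all 3814. No word was found at more than 8 of the 45. TATCGATA, the word bound by the promoter factor DREF, was at 0 of 45 member summits, a count that allows a share of up to 7.87% by the exact interval, against 7.94% of all summits. ATCGATAG, which overlaps it, was also at 0, against 8.15%. Within 100 bp of the summit TATCGATA was at 3 of 45, against 12.2% of all. GGTCACACT, the word of the factor M1BP, was at 1 summit (mRpL48, 2.22%), against 4.93% of all. Within 100 bp it was at 4 (8.89%), against 7.92%, so its direction turned with the window. CANCNCTA was at 5 (11.1%), against 9.31%. TATAAA was at 8 (17.8%, 8.0 to 32.1%), against 13.4%, and CAGCTG at 7 (15.6%, 6.49 to 29.5%), against 8.39%. Within 100 bp CAGCTG was at 13 (28.9%), against 14.8%, and TATAAA was also at 13, against 26.7%. In windows centred 300 bp to either side of the member summits, CAGCTG was in 6 of 90 (6.67%), against 5.03% of such windows for all summits. AACAGCAC was at the mRpL3 summit alone, against 1.97% of all, CAGGGCTG was at those of mRpL47 and mRpL54, against 2.36%, and TGCGCA was at mRpS16 and mRpS26, against 3.88%. CAGGTAG was at 0 of 45, against 0.472% of all summits. For GAGAGAG the count was also 0, against 1.42%, and for CCGGAAGT it was 0, against 0.288%. The median AT content of the windows was 60.4% for the member summits and for all summits.

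The word CAGCTG was also counted in whole promoters, which are longer than the summit windows. It is a palindromic E-box, the kind of word that basic helix-loop-helix factors recognise. It occurred between 250 bases before and 50 after the most upstream TSS in 40 of the 73 promoters (54.8%, 42.7 to 66.5%), against 17.7% of all coding promoters. In the 250 bases before the TSS alone it was in 21.9%, against 13.4%. It was in 24 of 41 bound genes (58.5%, 42.1 to 73.7%) and in 16 of 32 unbound ones (50%, 31.9 to 68.1%), with overlapping intervals. The promoter classes compared for this word were chosen after its count was seen. Head-to-head genes had it in 31 of 58 promoters (53.4%), against 22.0% of head-to-head coding genes, and the others had it in 9 of 15 (60%), against 15.2%. Of its 45 occurrences in the members' promoters, 36 lay within 50 bp of the TSS, and the median position of all 45 was 5 bp after it. In 35 of 73 promoters (47.9%) it lay within 50 bp of the TSS, against 9.55% of all coding promoters. In the 24 bound genes with the word, the strongest summit lay a median of 122.5 bp from it, and within 50 bp in 6.

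To show where the word sits, 100 bases from 70 before the TSS are printed for 3 bound genes (mRpL46, mRpL11, mRpL32) and 3 unbound ones (mRpS34, mRpL19, mRpS21), on the strand of the gene, from the RefSeq dm6 sequence. These 6 were chosen after their values were seen. The windows are chr3L:1777369-1777468, chr3R:14511768-14511867 and chr3R:31252802-31252901 for the bound genes, all on the plus strand. For the unbound genes they are chr3L:16348004-16348103 (plus), chr3R:8674039-8674138 (plus) and chr3R:13381780-13381879 (minus). Capitals mark CAGCTG.
mRpL46: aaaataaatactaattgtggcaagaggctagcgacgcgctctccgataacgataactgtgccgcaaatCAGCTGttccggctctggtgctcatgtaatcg
mRpL11: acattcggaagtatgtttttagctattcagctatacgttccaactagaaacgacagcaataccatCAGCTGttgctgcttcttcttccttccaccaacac
mRpL32: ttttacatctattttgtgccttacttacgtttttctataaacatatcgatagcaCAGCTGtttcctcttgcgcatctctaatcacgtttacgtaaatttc
mRpS34: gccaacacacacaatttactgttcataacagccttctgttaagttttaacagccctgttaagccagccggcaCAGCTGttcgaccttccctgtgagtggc
mRpL19: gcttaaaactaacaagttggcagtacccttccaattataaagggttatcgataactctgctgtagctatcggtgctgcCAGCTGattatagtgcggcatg
mRpS21: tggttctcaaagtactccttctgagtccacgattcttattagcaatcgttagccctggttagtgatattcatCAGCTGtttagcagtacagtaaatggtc

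In these 6 the centre of the word lies between -13 and 11 bp of the TSS, and in all but mRpL19 it is followed by TT. The longer form CAGCTGTT, on either strand, made up 62.2% of the occurrences in the members' promoters, against 39.8% of those in all coding promoters. In mRpL46 the word also lies under the summit, which is 14 bp downstream of the TSS, while in mRpL11 and mRpL32 the summit lies 217 and 168 bp upstream, on the side of HtrA2 and qless.

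**Figure D5:**
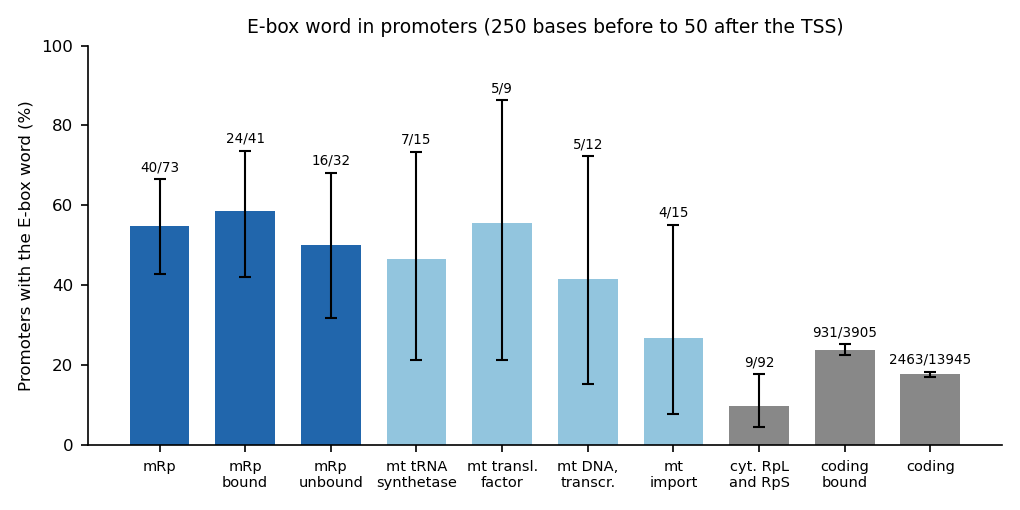
Percent of promoters (250 bases before to 50 after the TSS) that hold CAGCTG, with counts above the bars and exact 95% intervals, for mitochondrial ribosomal protein genes (dark blue), other mitochondrial lists (light blue), and cytoplasmic ribosomal protein and coding genes (grey). Bound and unbound mitochondrial ribosomal protein genes stand at 58.5 and 50%, and cytoplasmic ribosomal protein genes at 9.78%.

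CAGCTG was also counted in the other lists of mitochondrial genes, to be read against the 17.7% of all coding promoters. It was in the promoters of 7 of 15 mitochondrial aminoacyl-tRNA synthetase genes (21.3 to 73.4%) and 5 of 9 translation factor genes (21.2 to 86.3%). It was in 5 of 12 genes of mitochondrial DNA and transcription (15.2 to 72.3%) and 4 of 15 import genes (7.79 to 55.1%), and both of these intervals include 17.7%. In the cytoplasmic ribosomal protein genes it was in 9 of 92 promoters (9.78%). The promoters of tko and bonsai held it as well. TATCGATA was in 20.5% of the members' promoters, against 9.36% of all, in 6 of the 41 bound genes and 9 of the 32 unbound ones. GGTCACACT was in 11.0%, against 6.05%, CANCNCTA in 21.9%, against 15.6%, and TATAAA in 46.6%, against 45.8%. A word in a promoter is a match of letters and not a site shown to be used.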

How the data were processed

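ChIP-seq peak lists of tagged CG17186 were deposited for 3 replicates, for their pooled alignments and as a reproducible set thresholded by the irreproducible discovery rate (IDR), in narrowPeak files of 10 columns. Per the deposited read-me tables, the authors called relaxed lists against a control alignment and ran IDR on them. Names and versions of the aligner and caller, and the IDR cutoff, were not given in the sources used here. Each peak's deposited signal (column 7) is on that caller's scale and was used to rank and describe peaks. The deposited −log10 q-value (column 9) was read and entered no result. Files for dm3 were not used. The lists hold no read counts, so depth is unknown, and the exact Clopper-Pearson 95% intervals cover the number of genes or summits only.

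Gene models came from Ensembl release 115 (FlyBase 6.54) and sequence from the RefSeq dm6 assembly. A summit is the peak start plus the summit offset. Replicate peaks were matched by an overlap of at least 1 bp, the strongest being kept, and relative signal is the mean ± SD over 3 replicates. Values were computed with Python 3.11.15, numpy 2.4.6 and scipy 1.17.1, and the steps were tested on simulated data. No hypothesis test was run, since there was 1 group.

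The members and lists were chosen with earlier results of these data known. Replicate values are given for the 12 members with the largest pooled signal and for the weakest, and every other member is named with its pooled signal or its absence. Of other lists the 3 strongest bound genes are named. The 2 written symbol lists matched 9 of 10 translation factors and 12 of 14 genes of mitochondrial DNA and transcription.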

Additional observations from a re-analysis of the deposited data

How the results depend on the processing

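For 36 results, 108 of 120 recomputed values, and 4 of 5 more from settings added after seeing the data, counted as unchanged. A percentage counted so within the exact interval of its main value, a count within 1.5 times, and other values within the spread. These intervals can be wide. That of TATCGATA at member summits, 0 to 7.87%, took in the 6.67% found within 100 bp. A percentage that stayed inside its interval is therefore weak evidence of stability. The 108 also include 39 relative signals of named genes, which could not have moved beyond their spread. The bound genes fell to 25 with the stronger 50% of peaks, against 15.6% of coding genes, and to 22 with nearest TSS only, against 20.2%. By nearest TSS only, 40.4% of the large and 11.5% of the small subunit were bound. The small subunit was then below the 20.2% of coding genes, where by the main rule it had 42.3% against 28.0%. This rule also left 34.5% of head-to-head genes bound, against 30.9% of head-to-head coding genes, and a median offset of -17.5 bp. In the pooled list it left 45 genes, for which the share of coding genes is not given here. The stronger 50% of peaks left 38.3% of the large subunit bound and TATAAA at 7.69% of summits. The median offset was -72 bp with a 250 bp window, and -99 bp in the strongest peaks of replicate 1. CAGCTG was in 21.9% of members' promoters when only the 250 bases before the TSS were read, against 13.4% of all, an alternative chosen after seeing the data.

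Leaving out 1 replicate at a time gave 31 to 35 genes bound in the strongest peaks of the remaining replicates, 44 to 45 summits overlapped, and a median relative signal of 1.11 to 1.16 (1.16 without replicate 2), against 1.09 with all 3. The share of coding genes bound in the remaining replicates is not given here. None of the 39 recomputed relative signals of named genes moved by more than its SD. That outcome was fixed in advance, because leaving out 1 of 3 values cannot move a mean by its SD. No paired analysis was possible because there was 1 group.

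Depth is unknown, so a gene absent from a list is below that list's threshold and not shown to lack the protein. With no untagged sample analysed here, recovery that does not depend on the tag was not tested. Embryos aged 0 to 14 hours mix stages and tissues.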
